A study of Mus musculus with 4 samples.

Results

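Forkhead (Fox) genes encode transcription factors that share a winged-helix DNA-binding domain, and 36 of them were followed here in retinal aggregates at day 7 and day 4 of differentiation. The 36 were listed by symbol and leave out forkhead genes better known as markers of a single early lineage, such as Foxh1, Foxi3 and Foxd1. All 36 were measured, among 22180 genes in the table. The aggregates were grown in matrigel-containing medium from wild-type EB5 mouse embryonic stem cells of 129/Ola origin, a line in which GFP is knocked in at the Rx (Rax) promoter, and all groups carry this knock-in. There were 2 arrays of total RNA from day 7 and 2 from day 4. The labels do not say whether replicates were separate cultures, so the tests measure the spread between these arrays, which may be technical. Each SE and p draws on that spread over all genes as well as for the gene itself. A signal is the authors' log2 value after RMA normalization, so a difference of 1 is a doubling, and the number of arrays limits the precision.

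Forkhead classes differ in what controls them and where they act. FoxO factors are held out of the nucleus when insulin and growth factor signals switch on the kinase Akt, and FoxM1 drives genes of cell division. FoxP factors act as dimers, mostly as repressors, in the developing brain, lung and immune system, while FoxC, FoxD and FoxF factors are known from mesoderm, neural crest and the mesenchyme around organs, the eye included.

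Between the days, 10 of the 36 forkhead genes changed. Foxc1, Foxp2, Foxd2, Foxb1, Foxc2, Foxp4 and Foxm1 rose by day 7, and Foxr2, Foxd4 and Foxo1 fell. A gene was called when limma's p, adjusted by Benjamini-Hochberg over all 22180 genes, was under 0.05, and no p was adjusted over the forkhead genes alone. The 7 that rose are 19.4% of the forkhead genes, against 6.15% of all genes, and the 3 that fell are 8.33%, against 4.33% of all genes. Together, 27.8% of the forkhead genes were called in either direction and 10.5% of all genes. These shares are not matched by level, as 0 of the 36 had a mean signal under the 25th percentile, against 25% of all genes. The fit and its adjustment were also redone on genes with more signal alone, where called shares were larger. Those counts are not shares of the calls above. Above the 25th percentile 2555 of 16635 genes were then called, with the forkhead counts still 7 and 3. Above the 50th, 2572 of 11090 genes were called, and of 19 forkhead genes 5 were higher and 1 lower. Both day 7 values lay above both day 4 values for 14 forkhead genes (38.9%, against 25.6% of all genes) and below them for 11 (30.6%, against 25.1%). The median log2 difference was 0.03 over the forkhead genes and 0.00 over all genes, and 6 forkhead genes (16.7%) differed by at least 1, against 5.46% of all genes. The call of Foxp2, Foxb1, Foxd2 and Foxr2 held under every alternative processing in which the gene was tested, while that of the other 6 was lost in at least 1. In bulk RNA, fewer cells of a type and less RNA per cell cannot be told apart, which applies to each gene below.

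**Figure D1:**
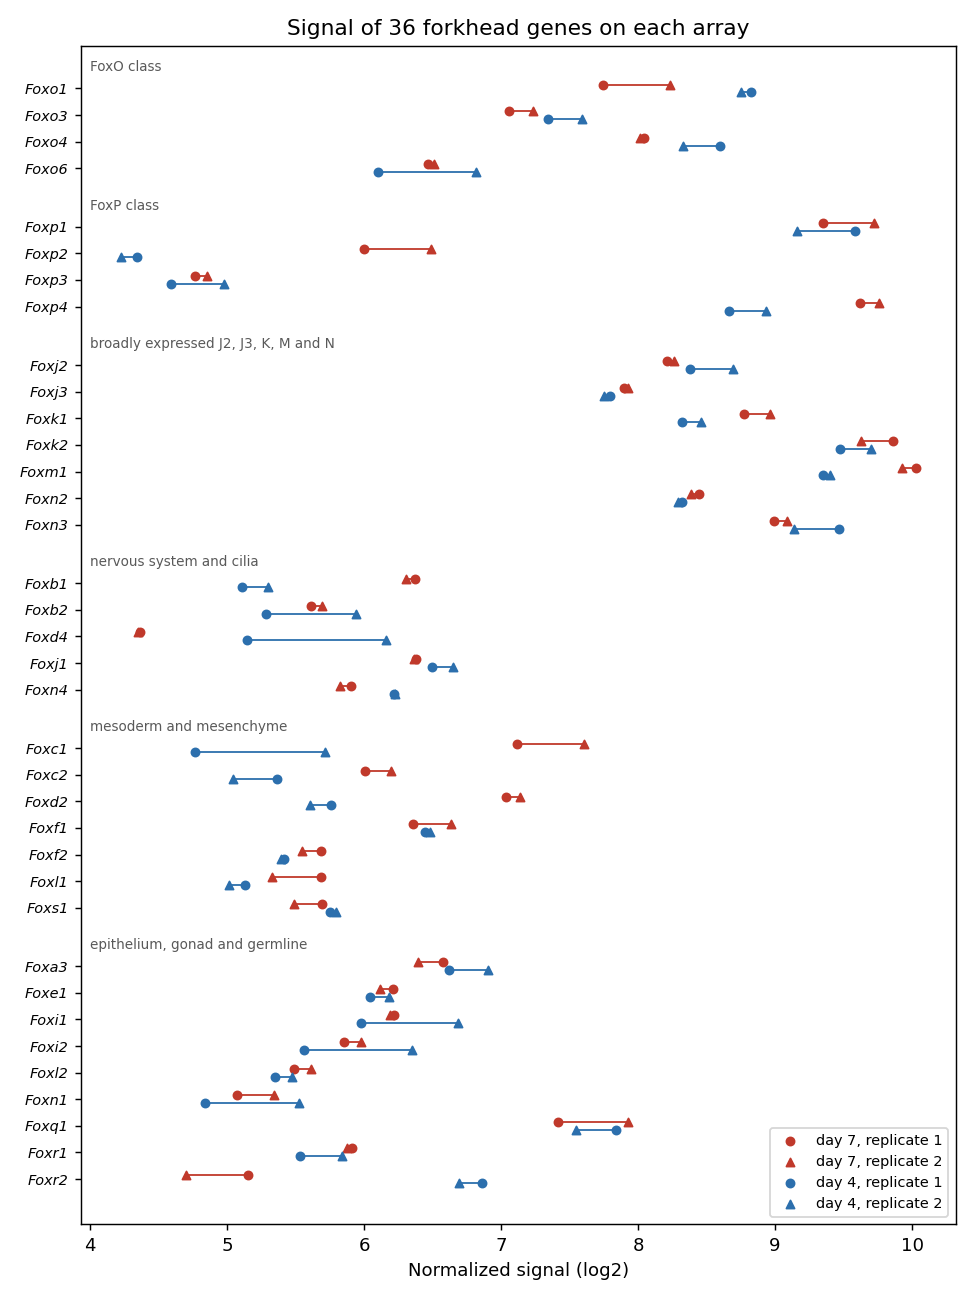
The log2 signal of each of the 36 forkhead genes (rows, grouped by class) is shown on the 2 day 7 arrays (red) and the 2 day 4 arrays (blue), with a line joining the arrays of a day. The days are widely separated for Foxp2, Foxc1, Foxd2, Foxb1 and Foxr2, while most genes of the last group overlap or nearly touch.

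Promoter windows from RefSeq (build GRCm38.p6, 250 bases before to 50 after the annotated start) were matched by symbol for 22 of the 36 genes, with 25 windows in all. Windows of 2 genes that rose and 2 that fell are shown, CG-rich and CG-poor. Each CG dinucleotide is in capitals.
Foxc1, which rose, plus strand, chr13:31806396-31806695: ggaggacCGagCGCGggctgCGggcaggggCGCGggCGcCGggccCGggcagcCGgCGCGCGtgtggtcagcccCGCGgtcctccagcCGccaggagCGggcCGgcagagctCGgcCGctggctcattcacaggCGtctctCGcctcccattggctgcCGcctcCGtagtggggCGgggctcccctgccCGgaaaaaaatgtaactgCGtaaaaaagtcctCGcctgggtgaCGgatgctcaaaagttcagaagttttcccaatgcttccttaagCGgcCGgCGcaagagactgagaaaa
Foxd2, which rose, minus strand, chr4:114908849-114909148: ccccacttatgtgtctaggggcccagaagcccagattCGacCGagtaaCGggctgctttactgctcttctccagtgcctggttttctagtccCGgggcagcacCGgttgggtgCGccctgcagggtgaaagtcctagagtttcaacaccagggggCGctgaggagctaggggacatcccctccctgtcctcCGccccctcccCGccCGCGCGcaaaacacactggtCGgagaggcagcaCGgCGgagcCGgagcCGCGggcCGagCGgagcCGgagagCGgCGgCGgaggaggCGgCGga
Foxo1, which fell, plus strand, chr3:52268087-52268386: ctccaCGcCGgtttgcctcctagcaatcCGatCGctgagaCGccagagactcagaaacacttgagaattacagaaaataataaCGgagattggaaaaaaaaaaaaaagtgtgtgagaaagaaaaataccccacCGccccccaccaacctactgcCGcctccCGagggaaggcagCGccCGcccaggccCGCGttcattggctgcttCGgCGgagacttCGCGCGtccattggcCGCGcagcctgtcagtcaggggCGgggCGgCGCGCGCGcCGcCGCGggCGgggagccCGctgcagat
Foxr2, which fell, plus strand, chrX:153118538-153118837: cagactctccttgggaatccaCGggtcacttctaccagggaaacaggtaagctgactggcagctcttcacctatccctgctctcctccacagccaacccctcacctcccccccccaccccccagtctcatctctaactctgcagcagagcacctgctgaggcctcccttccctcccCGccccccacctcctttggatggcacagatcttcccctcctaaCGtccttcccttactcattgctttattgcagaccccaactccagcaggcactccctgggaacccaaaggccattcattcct

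These windows hold 32 CG dinucleotides for Foxc1, 26 for Foxd2 and 31 for Foxo1, against 3 for Foxr2. Of the other changed genes with a window, Foxp4 (rose) had 33 and Foxd4 (fell) had 12. Over the 25 forkhead windows the median was 22 and the range 3 to 59, against a median of 7 over all 32851 promoter windows of the table. Windows with at least 26 CG made up 11 of the 25 forkhead windows (44%) and 16.9% of all windows. The forkhead core motif GTAAACA, searched on both strands, was in 0 of the 25 windows and in 3.65% of all windows. With so few windows, 0 of 25 cannot be told apart from 3.65%. The GC box GGGCGG, likewise on both strands, was in 18 of 25 (72%) and 35.7% of all. GGGCGG itself holds a CG, so its share is not separate from the CG counts above. Foxp1 and Foxp3 have more than 1 window each, so the windows are not all separate genes. The motifs could overlap by at most 1 base. A match is only a description of these letters in this window. CG-rich windows were found among genes that rose, fell and were not called.

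In the class known from mesoderm and mesenchyme, 3 of 7 forkhead genes rose, 0 fell and 4 were not called. The called share was 42.9%, against 10.5% of all genes. Foxc1 (probe set 17286340), which is needed for head mesenchyme and the front of the eye, read 7.12 and 7.60 on the day 7 arrays, against 4.76 and 5.72 on those of day 4. Both day 7 arrays stood above both day 4 arrays, and the day 4 arrays were themselves 0.95 apart. Foxc1 rose 4.35-fold (log2 difference 2.12, SE 0.315, adjusted p = 0.0068), and its adjusted p was 0.0554 when day 7 replicate 2 was left out. Its close relative Foxc2 (probe set 17506296), known from somites and lymphatic vessels, read 6.01 and 6.20 on the day 7 arrays, against 5.36 and 5.04 on those of day 4. The days were apart, and the rise was 1.87-fold (log2 difference 0.90, SE 0.168, adjusted p = 0.0162). Leaving out day 7 replicate 1 or 2 ended the call of Foxc2, at a log2 difference of 1.00 or 0.81. With 1 array left for a day, a call can end although the difference does not shrink, which applies to each such loss below.

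Foxd2 (probe set 17428424), known from kidney and facial mesenchyme, read 7.04 and 7.13 on the day 7 arrays, against 5.76 and 5.60 on those of day 4. Replicates lay within 0.16 of each other on each day, and the rise was 2.65-fold (log2 difference 1.40, SE 0.144, adjusted p = 0.0015). Its adjusted p was at most 0.0216 over the alternatives. Foxl1, a gene of mesenchyme beneath the gut epithelium, read 5.68 and 5.33 on the day 7 arrays, against 5.13 and 5.02 on those of day 4, a log2 difference of 0.43 that was not called (95% interval 0.04 to 0.83, adjusted p = 0.175). Foxf1 and Foxf2, both needed in the mesenchyme of gut and lung, had log2 differences of 0.03 (95% interval -0.33 to 0.40) and 0.21 (-0.12 to 0.54), and Foxs1, a gene of sensory neurons and blood vessel wall cells, one of -0.19 (-0.53 to 0.16).

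Several of these genes lie in clusters. In the RefSeq gene order Foxq1, Foxf2 and Foxc1 follow each other on chromosome 13 with 0 protein-coding genes between them, and on chromosome 8 Foxf1, Foxc2 and Foxl1 follow each other with 1 protein-coding gene between Foxf1 and Foxc2. In the chromosome 13 cluster Foxc1 rose, while Foxq1, a gene of hair and stomach epithelium, read 7.42 and 7.93 on the day 7 arrays, against 7.84 and 7.54 on those of day 4. In the chromosome 8 cluster Foxc2 rose, and Foxf1 read 6.35 and 6.63 on the day 7 arrays, against 6.44 and 6.48 on those of day 4. Foxq1 and Foxf1 overlapped between the days. Foxf2, next to Foxc1, and Foxl1, next to Foxc2, read above day 4 on both day 7 arrays without a call. Their log2 differences were 0.21 and 0.43, and 25.6% of all genes had both day 7 values above day 4. Whether neighbours differed in their change was not tested.

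**Figure D2:**
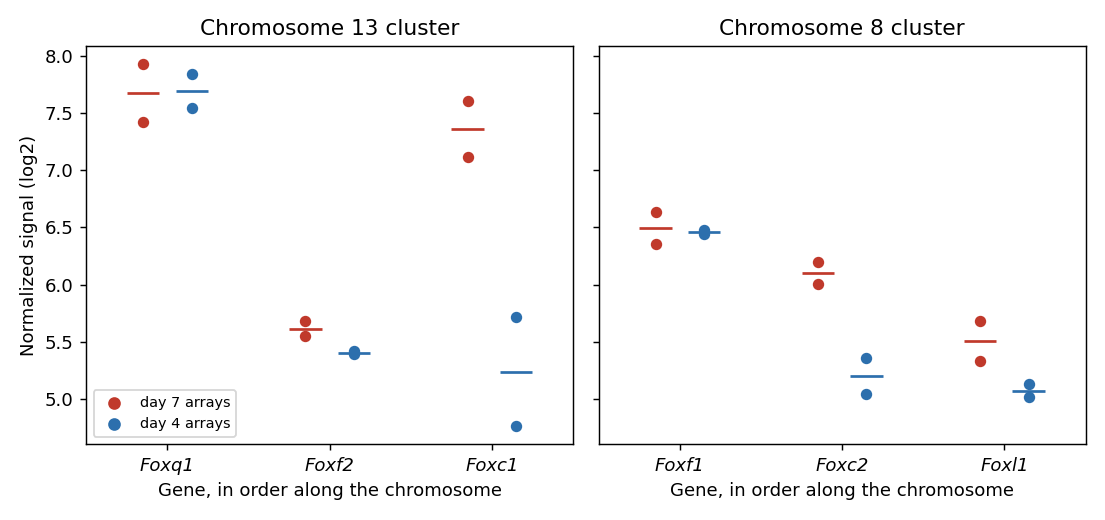
The log2 signal is plotted for the 3 forkhead genes of the chromosome 13 cluster (left) and the chromosome 8 cluster (right), in their order along the chromosome, with a point for each array and a line at the mean of each day (day 7 red, day 4 blue). Foxc1 and Foxc2 are the 2 genes that rose, and Foxq1 and Foxf1 overlap between days. Foxf2 and Foxl1 lie above day 4 on both day 7 arrays without a call.

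Markers of cell types in which such genes are known were also read. Of 18 markers of head or paraxial mesoderm and mesenchyme, 6 rose, 2 fell and 10 were not called (44.4% called, against 10.5% of all genes). Their median log2 difference was 0.53, against 0.00 over all genes. The smooth muscle actin gene Acta2 rose by 3.38, the limb and head mesenchyme gene Prrx1 by 2.64 and the growth factor receptor gene Pdgfra by 1.68 on the log2 scale (limma adjusted p = 7.89e-05, 0.00263 and 0.00198). The surface glycoprotein gene Thy1 and the somite gene Tcf15 had log2 differences of -2.40 and -0.98 (limma adjusted p = 0.00133 and 0.0099, and for Tcf15 0.0775 and 0.0824 without day 7 replicate 1 and 2). The linear signals of the 18 genes summed to 3342 and 3621 at day 7, against 1395 and 1622 at day 4. Such a sum weighs the strongest genes most, at day 7 Acta2 and Pdgfra. Of 8 neural crest markers 5 rose and 0 fell, led by Tfap2b (log2 difference 3.28), Pax3 (2.54) and Sox9 (2.29), the last losing its call, at 0.0903 or 0.0838, when day 7 replicate 1 or 2 was left out. Of these 8 markers 62.5% were called, against 10.5% of all genes. Their sum was 2130 and 2155 at day 7, against 754 and 944 at day 4. Whether such cells were present, or had a part in the rises of Foxc1, Foxc2 and Foxd2, was not tested.

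For the labelled tissue, 9 retina and eye field markers were read, of which 6 rose, 0 fell and 3 were not called. That was 66.7% called, against 10.5% of all genes. The list was chosen with earlier results known, so it is no independent check of the tissue. The largest log2 differences were those of Nr2e1 (3.55), Pax6 (3.48) and Lhx2 (3.15). The other genes given here were chosen after their values were seen. Rax, the gene whose promoter drives GFP, rose by 1.51 on the log2 scale (limma adjusted p = 0.021), a call that ended when day 7 replicate 2 (0.119) or day 4 replicate 1 (0.052) was left out. Six6 was uneven at day 7, with 7.11 and 9.33, against 6.13 and 6.32 at day 4, and was not called. Six3 overlapped between the days (log2 difference 0.36), and Otx2 was below day 4 on both day 7 arrays without a call (log2 difference -0.54, limma adjusted p = 0.0898). The linear signals of the 9 genes summed to 5109 and 6302 at day 7, against 2467 and 3118 at day 4. These sums weigh the strongest genes most, and at day 4 Otx2 (10.86 and 11.03) was far above every other marker of the list.

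In the FoxP class 2 of 4 genes rose and 0 fell (50% called, against 10.5% of all genes). Foxp2 (probe set 17456084), a repressor of developing forebrain and cerebellar neurons, read 5.999 and 6.48 on the day 7 arrays, against 4.34 and 4.22 on those of day 4. Every day 7 value was far above the day 4 values, and the rise was 3.88-fold (log2 difference 1.96, SE 0.190, adjusted p = 0.00119). The day 4 mean of Foxp2 lay under 4.60, the 25th percentile of the level of all genes. Foxp4 (probe set 17345740), a relative expressed in neural and lung progenitors, read 9.62 and 9.76 on the day 7 arrays, against 8.66 and 8.94 on those of day 4. It rose 1.85-fold (log2 difference 0.89, SE 0.158, limma adjusted p = 0.0138). Leaving out day 7 replicate 1 or 2 ended the call of Foxp4, at a log2 difference of 0.96 or 0.82.

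Foxp1, which acts in motor neurons, lymphocytes and stem cells, read 9.35 and 9.72 on the day 7 arrays, against 9.58 and 9.16 on those of day 4. Its days overlapped (log2 difference 0.16, 95% interval -0.31 to 0.64, adjusted p = 0.73). Foxp3, the defining factor of regulatory T cells, read 4.76 and 4.85 on the day 7 arrays, against 4.59 and 4.98 on those of day 4, overlapping likewise. Of 7 blood and immune markers, 3 had a mean under the 25th percentile of level and 4 between the 25th and the 50th. Called were 0 of them (limma, 0 at an unadjusted p under 0.05), against 10.5% of all genes. Csf1r, a macrophage receptor gene, had the largest log2 difference of these, 0.25, and the 7 genes summed to 210 and 225 at day 7, against 210 and 243 at day 4.

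In the FoxO class 1 of 4 genes fell and 0 rose (25% called, against 10.5% of all genes). Foxo1 (probe set 17397497), which in many tissues turns on genes of fasting and cell cycle arrest, read 7.74 and 8.23 on the day 7 arrays, against 8.83 and 8.75 on those of day 4. Both day 7 values lay below day 4, though 0.49 apart from each other. The fall was 1.74-fold (log2 difference -0.80, SE 0.189, adjusted p = 0.0401). This call was lost when day 7 replicate 1 was left out (log2 difference -0.56, adjusted p = 0.247), or day 4 replicate 1 (adjusted p = 0.0962), or day 4 replicate 2 (adjusted p = 0.0599), and with the mean of the 2 Foxo1 probe sets (-0.56, adjusted p = 0.0634). The second Foxo1 probe set read 5.84 and 5.88 on the day 7 arrays, against 6.13 and 6.24 on those of day 4. Foxo4 read 8.05 and 8.01 on the day 7 arrays, against 8.60 and 8.33 on those of day 4, and Foxo3 read 7.06 and 7.23 on the day 7 arrays, against 7.35 and 7.59 on those of day 4. Both are close relatives with shared targets, and for each the day 7 values lay below the day 4 values without a call (log2 differences -0.43 and -0.32, adjusted p = 0.141 and 0.289). Foxo6, a brain member of the class, overlapped between the days (log2 difference 0.03, 95% interval -0.53 to 0.58).

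Of 20 measured kinases, phosphatases, 14-3-3 proteins and cofactors that act on FoxO, 2 rose, 1 fell and 17 were not called, a called share of 15% against 10.5% of all genes. Akt1, the kinase that phosphorylates FoxO factors, read 10.61 and 10.53 on the day 7 arrays, against 9.16 and 9.23 on those of day 4, and rose 2.59-fold (log2 difference 1.37, adjusted p = 0.00142, at most 0.022 over the alternatives). Pik3r1, a regulatory subunit of the kinase upstream of Akt, rose 1.55-fold (log2 difference 0.64, adjusted p = 0.0269, and 0.052 to 0.175 when any array was left out). Sgk3, an Akt-like kinase, showed a log2 difference of -1.08 (adjusted p = 0.0155, becoming 0.128 and 0.0571 without day 7 replicate 1 and 2). Of 23 genes known as FoxO targets, 1 rose, 1 fell and 21 were not called (8.7% called), with a median log2 difference of 0.00. Igfbp1, a growth factor binding protein gene, rose unevenly to 6.48 and 8.12 on the day 7 arrays, against 5.20 and 5.18 on those of day 4 (log2 difference 2.11, adjusted p = 0.0289). Without day 4 replicate 1 or 2 the adjusted p of Igfbp1 was 0.0596 or 0.0526, and without day 7 replicate 1 or 2 its log2 difference was 2.94 or 1.29. Fbxo32, a ubiquitin ligase gene that FoxO factors induce in wasting muscle, fell to 6.54 and 6.58 on the day 7 arrays, against 7.71 and 7.77 on those of day 4 (log2 difference -1.18, adjusted p = 0.00246).

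**Figure D3:**
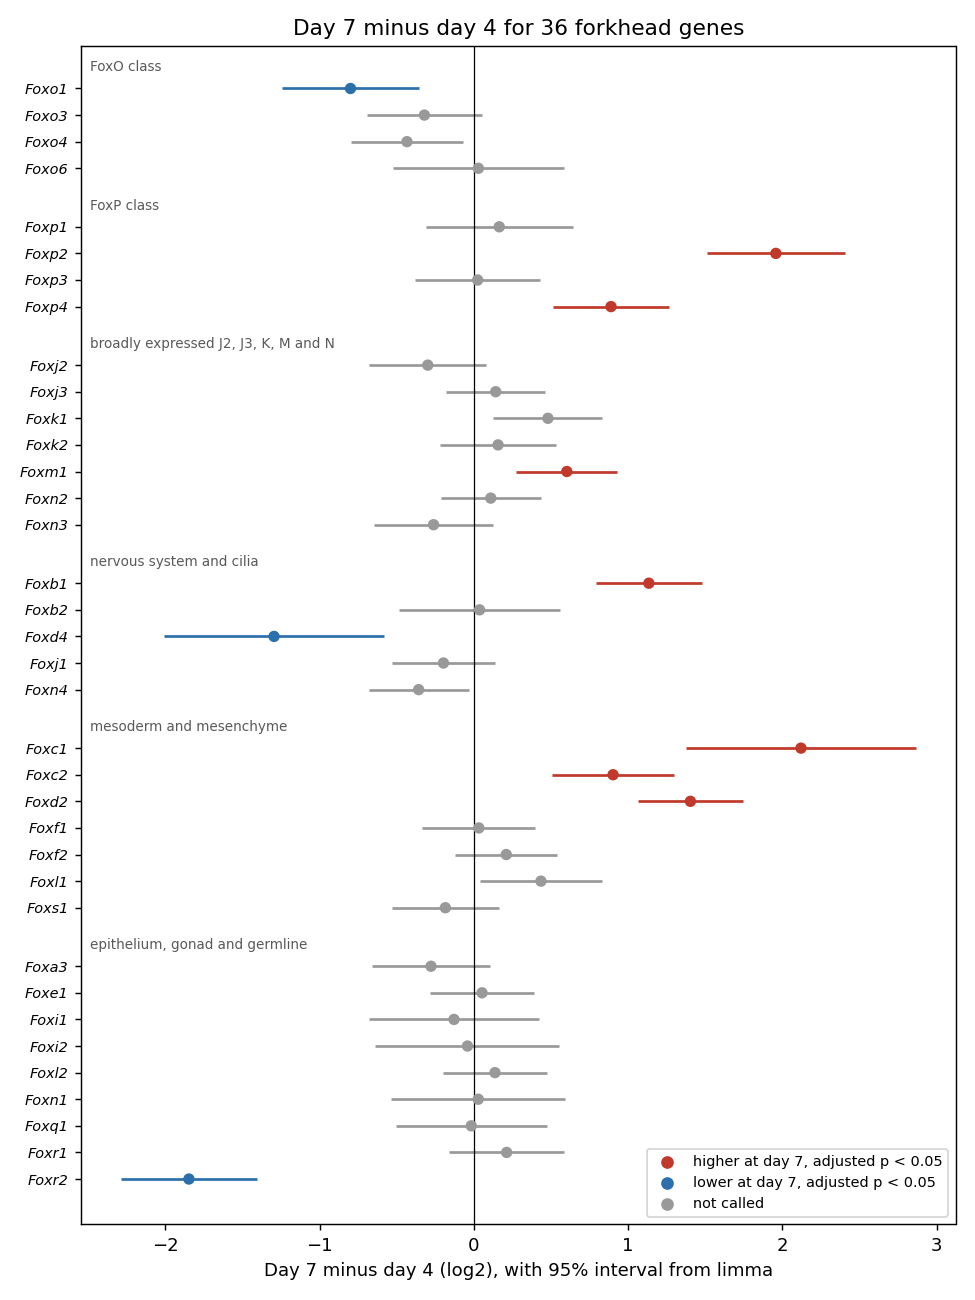
Each point is the log2 difference, day 7 minus day 4, of a forkhead gene with its 95% interval from limma (n = 2 arrays per day), coloured red where higher, blue where lower and grey where not called. Foxc1 (2.12) and Foxp2 (1.96) lie farthest to the right and Foxr2 (-1.85) farthest to the left.

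Among 7 broadly expressed genes of the J, K, M and N classes, 1 rose and 0 fell (14.3% called, against 10.5% of all genes). Foxm1 (probe set 17463401), an activator of genes for the G2 and M phases of the cell cycle, read 10.03 and 9.93 on the day 7 arrays, against 9.35 and 9.40 on those of day 4. The days were apart and the replicates close, and the rise was 1.52-fold (log2 difference 0.60, SE 0.139, adjusted p = 0.0366). Leaving out any array ended the call of Foxm1, with an adjusted p of 0.0587 to 0.247 and a log2 difference of 0.55 to 0.65. Of 24 measured G2 and M phase genes known as FoxM1 targets, 1 rose and 0 fell, with a median log2 difference of -0.03. The riser was the phosphatase gene Cdc25b (log2 difference 0.70, adjusted p = 0.0335, becoming 0.238, 0.12 and 0.0866 without day 7 replicate 1, day 7 replicate 2 and day 4 replicate 2). That share, 4.17%, compares with 10.5% of all genes.

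Foxk1, a repressor that recruits the Sin3 complex, read 8.77 and 8.97 on the day 7 arrays, against 8.32 and 8.46 on those of day 4. The days were apart without a call (log2 difference 0.48, adjusted p = 0.0984). Foxk1 passed on genes above the 50th percentile of level (adjusted p = 0.0436) and when the variance prior followed intensity and was estimated robustly (adjusted p = 0.0489). Its relative Foxk2 overlapped between the days (log2 difference 0.16, 95% interval -0.22 to 0.53). The log2 differences of Foxj2, Foxj3, Foxn2 and Foxn3, factors found in most tissues, were -0.30, 0.14, 0.11 and -0.26, with both day 7 values on a single side of day 4 for each and adjusted p from 0.34 to 0.737. Of 14 measured cofactors of FoxP, FoxK and FoxN proteins, 1 rose and 0 fell (7.14% called, against 10.5% of all genes). That gene was the histone deacetylase gene Hdac7 (log2 difference 0.83, adjusted p = 0.0465, becoming 0.191, 0.23 and 0.107 without day 7 replicate 1, day 7 replicate 2 and day 4 replicate 1, and 0.0642 after quantile normalization).

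In the group known from the nervous system and cilia, 1 of 5 genes rose, 1 fell and 3 were not called. The called share was 40%, against 10.5% of all genes. Foxb1 (probe set 17528557), a gene of the diencephalon and the mammillary bodies, read 6.37 and 6.30 on the day 7 arrays, against 5.11 and 5.30 on those of day 4. Each day 7 value was at least 1 above each day 4 value, and the rise was 2.19-fold (log2 difference 1.13, SE 0.146, adjusted p = 0.00372). A further probe set that names Foxb1 together with B230323A14Rik read 5.25 and 5.13 on the day 7 arrays, against 5.05 and 5.09 on those of day 4, and was not used. Foxd4 (probe set 17363640), a factor of the earliest neural ectoderm, read 4.37 and 4.35 on the day 7 arrays, against 5.15 and 6.16 on those of day 4. The day 4 arrays stood 1.01 apart, the widest gap between replicates among the 36 genes on either day. Foxd4 fell 2.46-fold (log2 difference -1.30, SE 0.302, adjusted p = 0.0378). Its day 7 mean lay under the 25th percentile of level. Leaving out day 4 replicate 1 or 2 gave a log2 difference of -1.80 or -0.79. Leaving out day 7 replicate 1 or 2 ended the call of Foxd4, at a log2 difference of -1.31 or -1.29.

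Foxb2, a relative of Foxb1 in the brain, overlapped between the days, at 5.61 and 5.69 on the day 7 arrays, against 5.29 and 5.94 on those of day 4. Foxn4, needed for amacrine and horizontal cells of the retina, read 5.91 and 5.82 on the day 7 arrays, against 6.22 and 6.23 on those of day 4, lower on both day 7 arrays without a call (log2 difference -0.36, adjusted p = 0.172). Foxj1, the regulator of motile cilia, read 6.38 and 6.37 on the day 7 arrays, against 6.49 and 6.65 on those of day 4 (log2 difference -0.20, adjusted p = 0.506). Of 22 measured genes of the motile cilium programme, a list that includes Foxn4, 0 rose and 1 fell, with 5 under the 25th percentile of level. That was 4.55% called, against 10.5% of all genes. The radial spoke gene Rsph1 showed a log2 difference of -0.71 (adjusted p = 0.0365, becoming 0.222, 0.162 and 0.107 without day 7 replicate 1, day 7 replicate 2 and day 4 replicate 1).

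Of 9 genes known from epithelia, gonads and the germ line, 1 fell and 0 rose (11.1% called, against 10.5% of all genes). Foxr2 (probe set 17538983), an X-linked gene that in the adult mouse is found mainly in testis, read 5.15 and 4.70 on the day 7 arrays, against 6.86 and 6.69 on those of day 4. Both day 4 arrays stood at least 1.5 above the day 7 arrays, and the fall was 3.6-fold (log2 difference -1.85, SE 0.187, adjusted p = 0.00142, at most 0.0126 over the alternatives). Its germ line relative Foxr1 read 5.91 and 5.88 on the day 7 arrays, against 5.53 and 5.84 on those of day 4 (log2 difference 0.21, adjusted p = 0.529). The other 7 genes had log2 differences from -0.28 to 0.14. They were Foxa3 of the liver (-0.28), Foxi1 of the inner ear and kidney (-0.13), Foxi2 of cranial ectoderm (-0.04), Foxq1 (-0.02), Foxn1 of the thymus (0.03), Foxe1 of the thyroid (0.05) and Foxl2 of the ovary (0.14). Their adjusted p ran from 0.386 to 0.982, and Foxe1, Foxi1, Foxi2, Foxn1 and Foxq1 overlapped between the days. At day 4, Foxi1, Foxi2 and Foxn1 were 0.69 to 0.79 higher on replicate 2 than on replicate 1, wider than their day differences. Such gaps were not particular to this group, as Foxo6 (0.72) and Foxb2 (0.66) had them too. Over the 36 forkhead genes, 23 were higher on day 4 replicate 2, with a median gap of 0.13, against 0.01 over all genes.

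Markers of the tissues in which these genes are known were mixed. Endoderm markers rose in 1 of 10 cases and fell in 1, with Sox17 at a log2 difference of 0.77 (adjusted p = 0.0321, becoming 0.139, 0.205 and 0.092 without day 7 replicate 1, day 7 replicate 2 and day 4 replicate 1) and the anterior endoderm gene Cer1 at -2.06 (adjusted p = 0.00156). Their linear signals summed to 1630 and 2553 at day 7, against 2540 and 2425 at day 4. Surface ectoderm and placode markers rose in 2 of 11 cases, Eya2 (log2 difference 2.89) and Tfap2c (2.41), and fell in 1, the epithelial gene Grhl2 (-1.99), with sums of 2563 and 3059 at day 7, against 2117 and 2367 at day 4. Of 6 endothelial markers the receptor gene Kdr rose (log2 difference 0.94, adjusted p = 0.0259, becoming 0.148, 0.0553 and 0.0505 without day 7 replicate 2, day 4 replicate 1 and day 4 replicate 2) and 0 fell. The endothelial sums were 406 and 600 at day 7, against 409 and 400 at day 4. The called shares were 20% for endoderm, 27.3% for surface ectoderm and placode and 16.7% for endothelium, against 10.5% of all genes. Whether such cells were present, or had a part in the forkhead values, was not tested. Against a median log2 difference of 0.00 over all genes, the median was 0.07 for the genes acting on FoxO, -0.11 for motile cilium genes, 0.18 for the FoxP, FoxK and FoxN cofactors, -0.17 for endoderm, 0.16 for surface ectoderm, -0.07 for blood and 0.20 for endothelium.

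**Figure D4:**
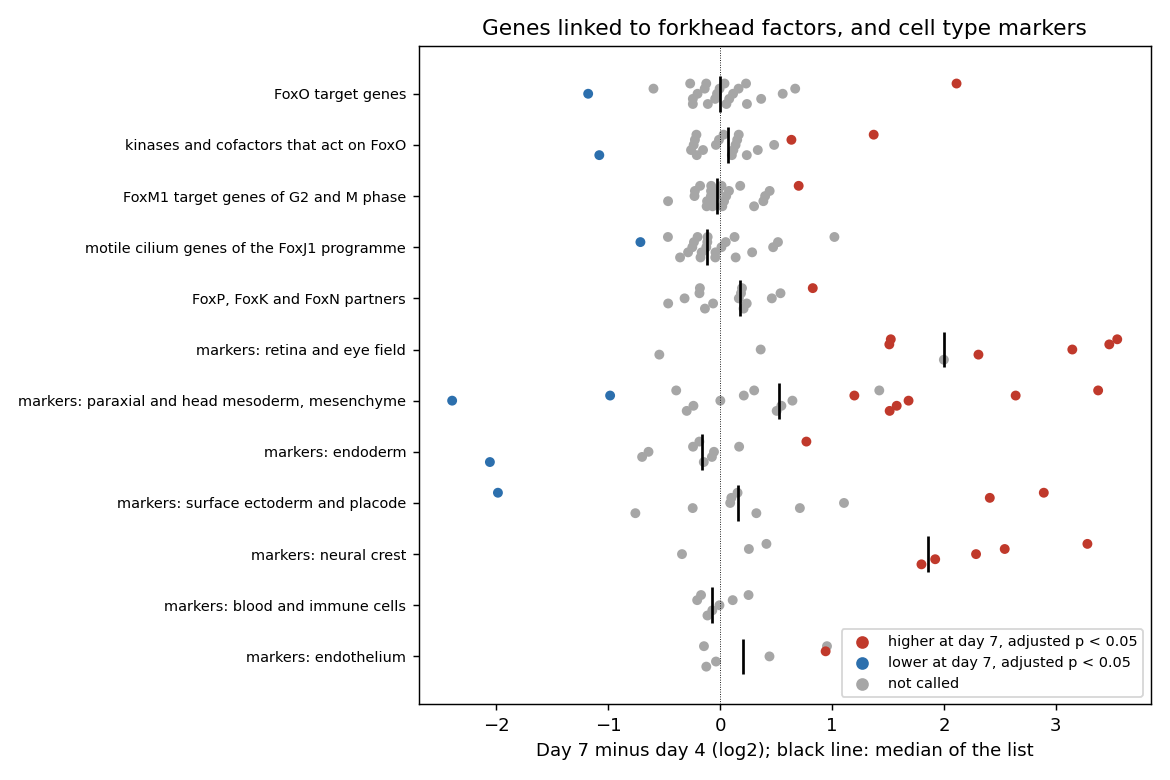
Points are log2 differences, day 7 minus day 4, of the genes in each list (rows), red where higher, blue where lower and grey where not called by limma, with a black line at the median of the list. The FoxO target and FoxM1 target lists centre near 0, while the medians of retina markers (2.00) and neural crest markers (1.86) lie to the right.

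Of 7 measured forkhead genes outside the 36, 1 rose and 3 fell (57.1% called, against 10.5% of all genes). Foxd1, a relative of Foxd2 known from ventrotemporal retina and kidney stroma, rose by 2.19 on the log2 scale (adjusted p = 0.000515), and Foxd3, Foxi3 and Foxh1 had log2 differences of -1.05, -3.17 and -3.22 (adjusted p = 0.0253, 0.000659 and 9.78e-05). Foxd3 lost its call when day 7 replicate 1, day 7 replicate 2 or day 4 replicate 1 was left out (adjusted p = 0.0666, 0.171 and 0.0638). Among the 36, the sizes of the falls stayed at or under 1.85. As the 36 were chosen with earlier results known and leave out Foxi3 and Foxh1, this is not a result about them. By mean signal over the 4 arrays, 0 of the 36 genes ranked below the 25th percentile of the table and 17 (47.2%) ranked below the 50th.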

How the data were processed

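The values are log2 signals per probe set as the authors deposited them. Per the submitters' processing notes they come from RMA and Partek 6.5; further settings are not given in the sources used here. RMA as usually run brings the arrays towards a common distribution, which would hide a shift of most genes together. Median signals were 5.68 to 5.77 and interquartile ranges 3.49 to 3.65 on the 4 arrays, so the deposited distributions were not identical. Probe sets naming exactly 1 gene in the platform annotation were kept (23521 of 41345), and the one with the highest mean over the 4 arrays stood for each gene (22180 genes), which mattered for Foxo1, Foxe1, Foxj2 and Foxq1. Day 7 minus day 4 was fitted with limma 3.58.1 in R 4.3.3 (lmFit, eBayes, day as the only term, two-sided, 2 residual degrees of freedom). The variance of each gene was drawn towards a prior over all genes (prior SD 0.160, 5.07 prior degrees of freedom). For genes with uneven replicates, such as Foxd4 and Foxc1, the printed SE is therefore smaller than their own arrays alone would give. The script was tested on simulated data. The forkhead genes and all lists were chosen with earlier results of these data known. Changed forkhead genes, those differing by at least 0.5 log2 (the same 10) and, per other list, the 3 largest called rises and falls were named, or, in a list without calls, the gene that differed most; forkhead genes outside the 36 only for comparison.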

Additional observations from a re-analysis of the deposited data

How the results depend on the processing

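With the replicate number as a block (replicate block) 2770 genes were called in place of 2324, and 7 forkhead genes rose and 3 fell, as without it; the deviations of same-numbered arrays correlated with r = 0.186 over all genes. Leaving out an array, so that 1 array stood for its day, gave 887 to 2500 called genes, 3 to 6 forkhead genes higher and 1 to 2 lower. At an adjusted p under 0.01 there were 1078 called genes, 4 forkhead genes higher and 1 lower. Above the 50th percentile of level, where 19 forkhead genes were tested, 1 was lower (Foxo1). Quantile normalization, centring on array medians, the 25th percentile filter, an intensity trend with or without robust estimation, averaging the probe sets of a gene and an adjusted p under 0.1 moved each of these 3 counts by at most 1.5 times. Of 415 single forkhead values, 398 kept their side of the threshold, 15 lost a call and 2 gained one, and 0 called values changed sign; the cause was not tested. Of 312 counts in the other lists, 65 moved by over 1.5 times or to or from 0.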
